A study of Mus musculus with 12 samples.

Results

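Peritoneal exudate cells, the mixed leukocytes and shed lining cells flushed from the abdominal cavity, were compared between mice lacking Ifnar2 and wild-type mice that had both received only saline. The comparison used the 3 single-colour Agilent arrays titled as Ifnar2-/- with phosphate-buffered saline (PBS) and the 3 arrays titled as wild type with PBS, 6 of the 12 arrays of the series. The other 6 arrays came from mice of the same genotypes injected with interferon beta (IFN-β, labelled as 10000 IU/ml). They were used to see whether a genotype difference was also present under that injection. They also entered the fit, so they helped set the standard errors and p-values of the PBS comparison. All animals were female, 8 weeks old, and their cells were collected 3 hours after the injection into the peritoneal cavity; different mice were used for each sample. The labels name no tissue restriction of the knockout. Both genotypes carry the strain label 129S2/SvPas*BALB/c, a name that joins both strains. The labels do not say whether the wild-type animals were littermates, or what share of each strain the animals of either group carried. Every gene with a probe well above background on all arrays of either PBS group was tested, which gave 17860 genes.

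Ifnar2 and Ifnar1 encode the chains that together bind type I interferon at the cell surface. The bound receptor activates the kinases Jak1 and Tyk2, which phosphorylate STAT proteins, and these join Irf9 in the complex ISGF3, which binds the interferon-stimulated response element in the promoters of interferon-stimulated genes. Small amounts of type I interferon made without infection keep some of these genes expressed at rest, which is often called tonic interferon signalling. The comparison of saline-injected animals asks what differs when that signal cannot be received, together with whatever else differs between the animals of the groups.

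The targeted gene was read by a pair of probes, and they moved in opposite directions. Each value here is log2 of the deposited processed signal minus the 75th percentile of the same array. The probe with the higher signal lies at chr16:91444402-91444461 in the mm7 assembly, per the file headers, and read 4.42, 4.87 and 4.62 on the wild-type arrays and 2.95, 2.74 and 2.69 on the Ifnar2-/- arrays. The difference was -1.85 ± 0.14 (SE), and in limma's moderated test with Benjamini-Hochberg adjustment its adjusted p was 6.3e-05. The other probe, at chr16:91455837-91455896, read 1.56, 1.67 and 1.68 in wild type and 2.49, 2.69 and 2.60 in Ifnar2-/-, a difference of 0.96 ± 0.18 (SE), with limma adjusted p = 0.014 over all probes. The 3 arrays of one genotype lay apart from the 3 of the other on both probes, and both remained well above background in Ifnar2-/-. The labels do not give the deleted exons, so neither probe can be placed inside or outside the deletion. The opening 30 of the 60 bases of each probe are shown because the reading of the knockout depends on which of them is used.
Probe lower in Ifnar2-/-: gtccttagagacttacttccaaagacaaac
Probe higher in Ifnar2-/-: tacatgggtcctggctcaaagacttccaat

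In all, 900 of the 17860 genes differed between the genotypes after PBS, 5.04% of those tested (limma, adjusted p under 0.05). Of these, 522 genes (2.92%) were higher in Ifnar2-/- and 378 (2.12%) were lower, and 580 differed by at least 2-fold, 326 higher and 254 lower. In every one of the 900 genes the 3 values of one genotype lay apart from the 3 of the other. These genes were called on the same values, so the separation adds no support. The median difference over all genes tested was 0.01 on the log2 scale. No slide held both groups: the 3 wild-type PBS arrays lay on slide 1, Ifnar2-/- PBS array 1 on slide 2, and Ifnar2-/- PBS arrays 2 and 3 on slide 3. On slide 3 the share of spots well above background was 59.4% and 62.5% on those arrays, against 68.7% to 70.5% on the other 4 PBS arrays. With slide as a fixed block, which the IFN-β arrays of slides 1 to 3 make possible, 29 genes passed and the standard errors were 1.98 times as large in the median. The direction was the same for 899 of the 900 genes in that fit, and the differences were 0.94 times as large in the median. Without the slide 3 arrays, where Ifnar2-/- PBS is 1 array assumed to vary like the other groups, 296 genes passed. Leaving out wild-type array 1, wild-type array 3, Ifnar2-/- array 2 or Ifnar2-/- array 3 left 435, 595, 470 and 486 genes, so each of these arrays moved the count by over 1.5 times. Leaving out Ifnar2-/- array 1 left 912 genes higher in place of 522. Slide and genotype cannot be told apart in these 6 arrays alone.

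Some interferon-stimulated genes were lower in Ifnar2-/-, and none was called higher. Over 7 lists that held 107 tested genes, 33 were called lower and 0 higher, which is 30.8% of the list genes against 2.12% of all genes tested. The filter lets in genes detected in wild type alone, which favours calls in the lower direction. With only probes well above background on all 6 PBS arrays, 24 list genes were called lower, and 293 of all 15759 genes then tested. In the list genes 91 of 107 differences were below 0, with a median of -0.39, against a median of 0.01 over all genes. At an unadjusted p under 0.05, 3 of the list genes were higher in limma, Aim2, Slfn4 and Tnfsf10. With Ifnar2-/- PBS array 1 alone against wild type, on the same assumption, 21 of the 33 passed and the median difference of the 33 was -1.90, against -2.10 with all arrays. With slide as a fixed block 4 of them passed, Rtp4, Oasl1, Ifi44l and Oas2, and the median of the 33 was -1.71.

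**Figure D1:**
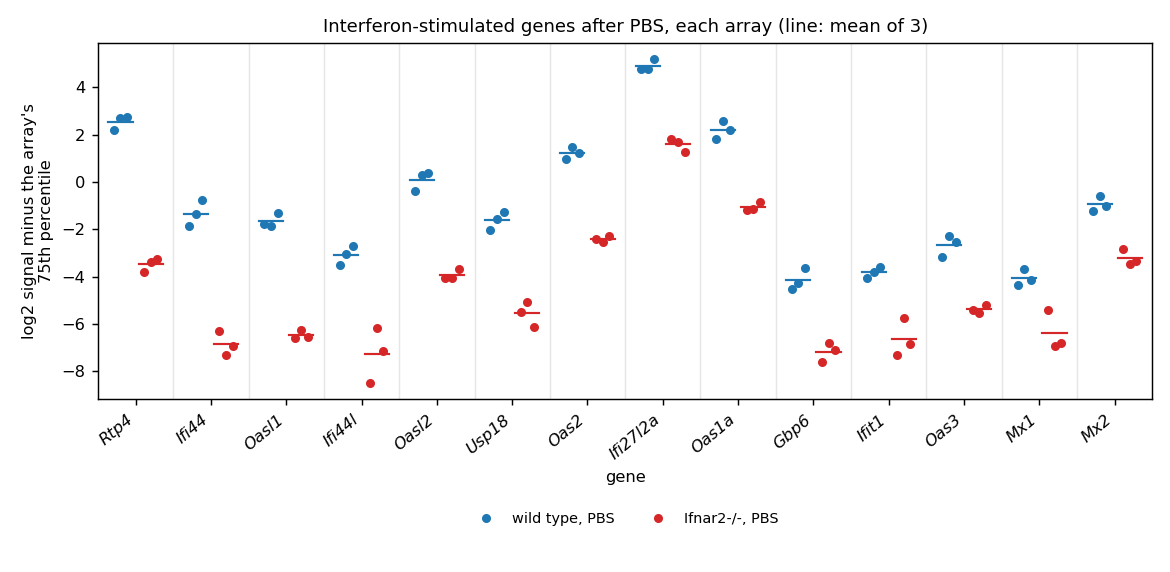
The log2 signal minus the array's 75th percentile (vertical axis) is shown for the 14 interferon-stimulated genes with the largest differences, with 1 point for each of the 3 arrays of a group and a line at the mean. In each gene the 3 Ifnar2-/- points lie below the 3 wild-type points, and Rtp4 has the widest gap, -6.02. The genes were chosen by their differences on these arrays, so the separation adds no support.

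The largest deficit in an interferon-stimulated gene was in Rtp4, an interferon-induced chaperone with antiviral activity. Rtp4 read 2.18, 2.70 and 2.74 on the wild-type arrays and -3.81, -3.38 and -3.26 on the Ifnar2-/- arrays, a difference of -6.02 ± 0.20 (SE), with limma adjusted p = 1.6e-07. All 6 values were well above background and the groups were far apart, and the gene also passed with slide as a block (limma adjusted p = 0.0012). Ifi44 and Ifi44l are a pair of interferon-induced genes of chromosome 3. Ifi44 read -1.86, -1.37 and -0.77 on the wild-type arrays and -6.30, -7.30 and -6.95 on the Ifnar2-/- arrays, a difference of -5.52 ± 0.56 (SE), with limma adjusted p = 3.3e-04, and 1 of the 3 Ifnar2-/- arrays was well above background. With all arrays raised to a common detection floor the difference was -3.68. Ifi44l was not well above background on any Ifnar2-/- array and was at least 6.14-fold lower there, with limma adjusted p = 0.0082. This bound sets the wild-type mean against the lowest signal that was well above background on each array, or the probe's own signal where that was higher. The same rule, with the groups exchanged for genes higher in Ifnar2-/-, gave every fold written here as at least. It is not a strict limit, because a probe not well above background can lie above that lowest signal. With the common floor the difference of Ifi44l was -1.92, smaller than this fold. Ifi27l2a, an interferon-induced membrane protein, had mean values of 4.91 ± 0.25 (SD, n = 3) in wild type and 1.59 ± 0.30 in Ifnar2-/-, and its difference was -3.32 (adjusted p = 3.8e-05) in limma. Lgals3bp, a secreted glycoprotein that binds galectins, differed by -2.10 (adjusted p = 4.6e-04) in the same fit.

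In the oligoadenylate synthetase family Oasl1, Oasl2, Oas1a, Oas2 and Oas3 were lower in Ifnar2-/-, as was Oas1f, which the lists do not hold. The synthetases make a second messenger that leads to the cleavage of RNA. Oasl1, a family member without synthetase activity, read -1.79, -1.84 and -1.33 on the wild-type arrays and -6.58, -6.28 and -6.54 on the Ifnar2-/- arrays, a difference of -4.81 ± 0.19 (SE), with limma adjusted p = 3.8e-07. Oasl1 was well above background on 1 of the 3 Ifnar2-/- arrays, and its difference was -3.37 with the common floor. Oas2 read 0.97, 1.46 and 1.22 on the wild-type arrays and -2.41, -2.53 and -2.28 on the Ifnar2-/- arrays, a difference of -3.62 ± 0.21 (SE), with limma adjusted p = 8.8e-06, and in both genes no Ifnar2-/- value came near a wild-type one. Oasl2 differed by -4.03 (adjusted p = 6.5e-05), Oas1a by -3.24 (adjusted p = 4.1e-04) and Oas3 by -2.72 (adjusted p = 0.0021) in limma. Oas1b, at -0.27, did not pass (limma adjusted p = 0.60). Members of the Oas family are alike in sequence, and cross-hybridisation between them was not tested.

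The other antiviral effectors split by gene. Of the 25 tested genes in the list of RNA-binding and antiviral effectors, 10 were lower and 15 did not pass, with a median of -0.55. Ifit1, which binds foreign RNA caps, was not well above background on any Ifnar2-/- array and was at least 3.71-fold lower there (limma adjusted p = 0.0014). Ifit3 differed by -2.11 (adjusted p = 0.037) and Rsad2, the antiviral enzyme viperin, by -1.82 (adjusted p = 0.022) in the limma fit. The second probe of Ifit3 read -0.88 and did not pass (limma adjusted p = 0.26 over all probes). With the common floor Rsad2 was -1.01 and with normexp -0.61, and each still passed. Ifit2 at -0.97 and Cmpk2, the neighbour of Rsad2, at -0.79 did not pass (limma adjusted p = 0.21 and 0.095). Mx1 and Mx2, dynamin-like antiviral GTPases, differed by -2.33 (adjusted p = 0.026) and -2.27 (adjusted p = 0.011) in the same fit. Other restriction factors did not pass: Bst2 at -0.29, Ifitm3 at -0.18, Samhd1 at -0.30, Adar at -0.31 and the kinase Eif2ak2 at -0.55, with limma adjusted p values from 0.18 to 0.50 for the first 4 and 0.16 for Eif2ak2.

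In the ISG15 pathway, where the ubiquitin-like protein Isg15 is attached to other proteins by Uba7, Ube2l6 and Herc6 and removed by Usp18, the modifier and the protease were lower and the 3 conjugating enzymes did not pass. Usp18, which also binds Ifnar2 and restrains the receptor, read -2.04, -1.58 and -1.27 on the wild-type arrays and -5.49, -5.08 and -6.11 on the Ifnar2-/- arrays, a difference of -3.93 ± 0.42 (SE), with limma adjusted p = 4.2e-04. Usp18 was well above background on 2 of the 3 Ifnar2-/- arrays, and its difference was -3.39 with the common floor. Isg15 read -1.36, -1.16 and -1.01 on the wild-type arrays and -2.28, -2.51 and -2.82 on the Ifnar2-/- arrays, a smaller but tight difference of -1.36 ± 0.15 (SE), with limma adjusted p = 6.1e-04. The conjugating enzymes lay between -0.20 (Herc6) and -0.16 (Uba7).

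Of the transcription factors of the pathway, Irf7 and Irf9 were lower and Stat2 did not pass. Irf7, the factor that amplifies type I interferon production, read -1.20, -0.52 and -0.55 on the wild-type arrays and -2.39, -2.19 and -2.30 on the Ifnar2-/- arrays, a difference of -1.53 ± 0.22 (SE), with limma adjusted p = 0.0024. Irf9 had means of 2.04 ± 0.12 (SD, n = 3) in wild type and 1.08 ± 0.05 in Ifnar2-/-, a difference of -0.97 (adjusted p = 0.0017) in limma. Stat2 lay at -0.36 (limma adjusted p = 0.19). Among 28 receptor and JAK-STAT genes (14.3% called against 5.04% of all genes tested), 2 were lower, Ifnar2 and Il10rb at -0.69. In the same list 2 were higher, Stat4 at 0.86 and Irf8 at 0.71. Ifnar1 differed by 0.20 and did not pass (limma adjusted p = 0.56), and Jak1 and Tyk2 lay at 0.01 and -0.01.

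The interferon-inducible GTPases, which act on vacuoles that hold intracellular pathogens, were the list with the highest share of calls: 8 of 15 tested genes were lower, all 15 differences were below 0, and the median was -0.65. Gbp6 was not well above background on any Ifnar2-/- array and was at least 2.99-fold lower there (limma adjusted p = 0.0015). Iigp1 read 0.57, 0.66 and 0.24 on the wild-type arrays and -1.57, -1.79 and -1.92 on the Ifnar2-/- arrays, a difference of -2.25 ± 0.42 (SE), with limma adjusted p = 0.013. Tgtp1 differed by -1.25, Gbp2 by -1.14, Irgm2 by -1.04, Gbp3 by -1.01, Gbp7 by -0.90 and Igtp by -0.58. The second probe of Tgtp1 read -0.25 and did not pass (limma adjusted p = 0.51 over all probes). Gbp2b, which the list does not hold, was also called lower. The copies of these families are near-identical in part, and their signals may be mixed on the array.

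In the list of nucleic acid sensors 1 of 9 tested genes was called, Zbp1, at -1.07 (limma adjusted p = 0.0017). Zbp1 senses left-handed nucleic acid and can start necroptosis. The RNA sensor Ddx58 (RIG-I), which that list does not hold, was also called lower and is given under other observations. The RNA sensor Ifih1 lay at -0.24, Dhx58 at -0.57 and the DNA sensor Cgas at 0.04, and none of these passed. Of 7 tested genes of the Ifi200 and Aim2 cluster, which encode DNA sensors, 0 passed in limma and 2 had an unadjusted p under 0.05, with a median of -0.29 and 6 of 7 below 0. In the list of other interferon-stimulated genes, 10 of 42 were lower. Besides those named they included Slfn5 at -1.84, Slfn1 at -1.36 and Ifi27 at -1.15, and the smallest were Tor3a at -0.46 and Daxx at -0.43. For Tor3a, probes passed in opposite directions.

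**Figure D2:**
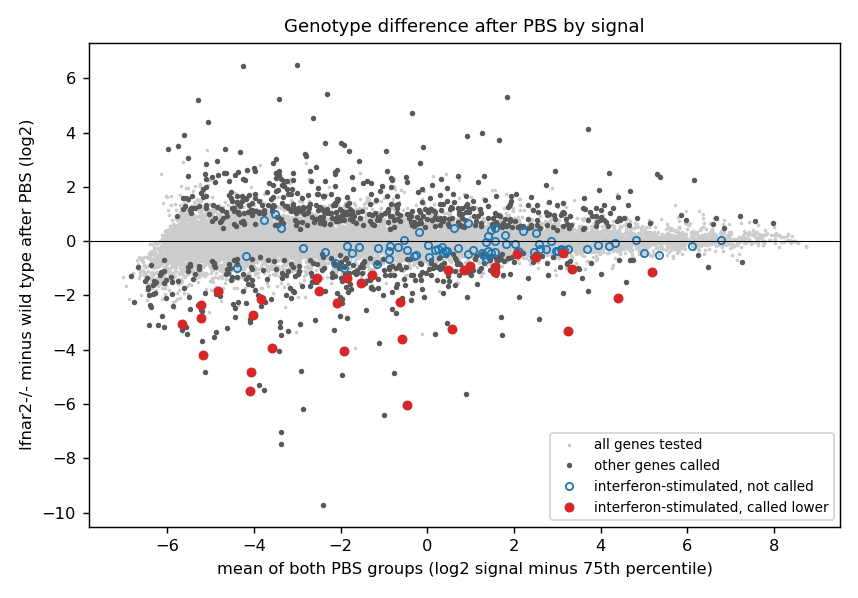
Each point is a gene, placed by its mean log2 signal over both PBS groups (horizontal axis) and by its difference, Ifnar2-/- minus wild type (vertical axis). The 33 interferon-stimulated genes called lower all lie below 0, with Rtp4 lowest at -6.02, and H2-Ea lies lowest of all genes at -9.71.

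For the arrays of IFN-β-injected mice, which share no array with the PBS comparison but share its slides, the genotype difference was taken in the same limma fit. After IFN-β 6820 genes (38.2%) differed between genotypes. All 33 interferon-stimulated genes called lower after PBS were lower after IFN-β as well, and 32 of them had a larger deficit then. Their median difference was -2.10 after PBS and -8.15 after IFN-β. The difference between those 2 genotype differences passed in 32 of the 33 genes (limma interaction, adjusted p under 0.05), against 17.6% of all genes tested. These genes were listed as interferon-stimulated, and Ifnar2-/- mice lack a chain of the receptor. Their larger deficit after IFN-β was thus largely set in advance and adds no support for the deficit after PBS. Rsad2 went from -1.82 to -13.16 (interaction adjusted p = 4.6e-07 in limma), Isg15 from -1.36 to -9.70 and Rtp4 from -6.02 to -10.52. The gene that did not follow was Ifi27, a membrane protein of mitochondria and the nuclear envelope, at -1.15 after PBS and -1.10 after IFN-β (interaction adjusted p = 0.93 in limma).

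**Figure D3:**
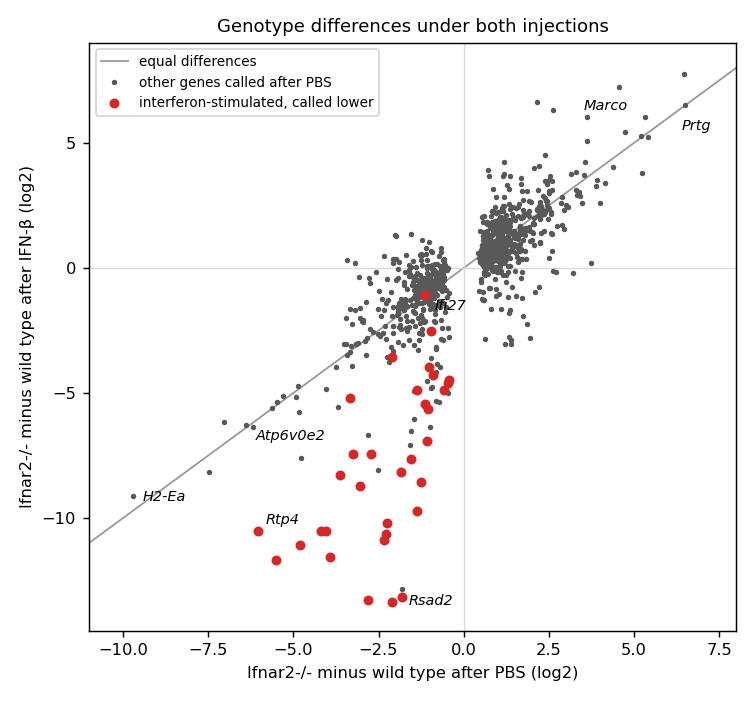
Each of the 900 genes called after PBS is placed by its genotype difference after PBS (horizontal axis, log2) and after IFN-β (vertical axis, log2), with a line of equal differences. Most interferon-stimulated genes lie far below the line, and genes such as H2-Ea, Atp6v0e2, Marco and Prtg lie near it.

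Of the other 867 genes called after PBS, 768 kept their sign after IFN-β, and in 647 of the 867 (74.6%) the genotype difference moved by less than 1 log2 unit between the injections, as did 1 of the 33 interferon-stimulated genes. The median absolute difference of these 867 genes after PBS was 1.18, so a move of less than 1 unit can be large beside it. The same count was not made over all genes. The interaction passed in 242 of the 867, a larger share than the 17.6% of all genes tested. It contains the PBS difference by which the 867 genes were selected, so the larger share can come from that selection. Over all 900 genes 801 (89.0%) kept their sign, against 65.3% of all genes tested, and 643 were called in both with the same sign. These 643 are 71.4% of the genes called after PBS and 9.43% of those called after IFN-β. Slide 2 held arrays of both genotypes after IFN-β, wild-type arrays 2 and 3 and Ifnar2-/- array 1, and there the sign was that of the PBS difference for 775 of the 900 genes (86.1%), against 57.6% of all genes. For the 867 genes the difference within slide 2 was 0.87 times that after PBS in the median.

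The promoters of the interferon-stimulated genes were searched for the interferon-stimulated response element, written GAAANNGAAA, on both strands, in RefSeq promoters of 300 bases (GRCm38.p6, 250 before to 50 after the start). Promoters were found by symbol for 22 of the 33 interferon-stimulated genes called lower, and 13 of these 22 (59.1%) held the motif. Of the list genes that were tested and not called, 23 of 59 (39.0%) held it, and of other genes called lower 11 of 195 (5.64%). Of genes called higher 10 of 355 (2.82%) held it, and 3.44% of all promoters given by RefSeq did. The 6 shown, chosen to show where the element lies, belong to called genes with a match in the 160 bases before the start. They were taken in order of difference, after some genes had been left out by their position in the genome. The 6 shown are therefore not a full ranking, and a gene with a larger difference can be missing. They are printed 5′ to 3′ on the gene's strand, ending at the base before the start, with each match in capitals.
Oas1a (chr5:120907526-120907685, minus strand): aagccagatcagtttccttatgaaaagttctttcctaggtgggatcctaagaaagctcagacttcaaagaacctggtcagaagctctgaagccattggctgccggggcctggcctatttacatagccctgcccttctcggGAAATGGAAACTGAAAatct
Ifit1 (chr19:34640729-34640888, plus strand): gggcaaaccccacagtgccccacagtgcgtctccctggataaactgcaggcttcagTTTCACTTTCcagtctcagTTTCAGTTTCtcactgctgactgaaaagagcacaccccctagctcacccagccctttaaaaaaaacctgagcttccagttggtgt
Oas3 (chr5:120777660-120777819, minus strand): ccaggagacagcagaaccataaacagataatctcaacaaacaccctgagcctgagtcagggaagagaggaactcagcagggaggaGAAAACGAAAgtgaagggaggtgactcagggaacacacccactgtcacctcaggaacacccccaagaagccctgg
Ifit3 (chr19:34583369-34583528, plus strand): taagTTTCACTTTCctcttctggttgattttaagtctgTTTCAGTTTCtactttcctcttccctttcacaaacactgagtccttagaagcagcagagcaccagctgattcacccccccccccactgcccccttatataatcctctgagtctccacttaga
Slfn5 (chr11:82951942-82952101, plus strand): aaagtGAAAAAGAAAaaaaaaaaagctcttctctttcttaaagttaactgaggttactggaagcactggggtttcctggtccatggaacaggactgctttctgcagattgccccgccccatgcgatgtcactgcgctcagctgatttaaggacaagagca
Rsad2 (chr12:26456453-26456612, minus strand): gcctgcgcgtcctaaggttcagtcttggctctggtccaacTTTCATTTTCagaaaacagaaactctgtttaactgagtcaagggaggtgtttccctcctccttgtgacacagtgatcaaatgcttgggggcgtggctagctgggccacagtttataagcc
In Oas1a a pair of overlapping matches lies just before the start, and the promoters of Ifit1 and Ifit3 each hold 2 matches in the reverse orientation. The corresponding differences after PBS were -3.24 for Oas1a, -2.81 for Ifit1, -2.72 for Oas3, -2.11 for Ifit3, -1.84 for Slfn5 and -1.82 for Rsad2. The value for Ifit1 is a fitted one with no Ifnar2-/- array well above background.

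Outside the interferon lists, the largest difference of all was in H2-Ea, the alpha chain of the MHC class II molecule I-E. H2-Ea read 2.64, 2.00 and 2.67 on the wild-type arrays and -7.83, -7.25 and -6.74 on the Ifnar2-/- arrays. It was not well above background on any Ifnar2-/- array, and was at least 285-fold lower there by the bound used above (limma adjusted p = 2.0e-07). The difference after PBS was smaller with the common floor, -7.46, and with normexp, -5.94. Without a floor the difference was -9.10 after IFN-β and -8.48 within slide 2. The PBS difference passed with slide as a block (limma adjusted p = 0.0015). As background, mice of the H2-b haplotype, which strains such as 129S2/SvPas carry, have a deletion that silences H2-Ea, and mice of the H2-d haplotype of BALB/c express it. The haplotype of the animals was not tested. Ccm2l, a relative of the vascular adaptor Ccm2, read -0.33, 0.75 and -0.02 on the wild-type arrays and -6.46, -7.12 and -7.14 on the Ifnar2-/- arrays, a difference of -7.04 ± 0.39 (SE), with limma adjusted p = 8.6e-06, with 1 of 3 Ifnar2-/- arrays well above background. Atp6v0e2, a subunit of the vacuolar proton pump, read 2.04, 2.35 and 2.19 on the wild-type arrays and -4.08, -4.39 and -4.14 on the Ifnar2-/- arrays, a difference of -6.40 ± 0.21 (SE), with limma adjusted p = 1.6e-07. Both of its probes were lower, the other by -4.94. After IFN-β the differences of Ccm2l and Atp6v0e2 were -6.14 and -6.26, close to those after PBS. Lhx8, a homeobox factor, differed by -4.05 after PBS and -4.86 after IFN-β.

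The other classical class II genes did not share the pattern of H2-Ea. H2-Aa, H2-Ab1, H2-Eb1 and the invariant chain Cd74 lay at -0.54, 0.02, -0.13 and 0.06, and did not pass. H2-Ob, a chain of the peptide-editing regulator H2-O, was higher and read -2.55, -3.06 and -2.25 on the wild-type arrays and 0.61, 1.04 and 0.41 on the Ifnar2-/- arrays, a difference of 3.31 ± 0.23 (SE), with limma adjusted p = 3.6e-05. H2-Eb2 was not well above background on any wild-type array and was at least 5.7-fold higher in Ifnar2-/- (limma adjusted p = 0.0021). With the common floor its difference was 1.01 and with normexp 0.77, and neither passed (limma adjusted p = 0.25 and 0.099). Of 12 class II genes tested, 2 were higher and 1 lower, 25% called against 5.04% of all genes tested. The higher genes were also higher after IFN-β, with 3.84 for H2-Ob and 3.71 for H2-Eb2. In the list of class I presentation (10% called), 1 of 20 was higher, the peptide transporter Tap2 at 1.69 (adjusted p = 7.4e-05) in limma. Another 1 was lower, H2-T24 at -0.83 (limma adjusted p = 0.040), a call lost in 12 of 18 other settings. The partner transporter Tap1 lay at -0.29 and B2m at -0.01. In Tap2 the difference became -0.40 after IFN-β, a change of sign (limma interaction adjusted p = 4.4e-05).

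Cd209a, Clec4g, Retn and Spp1 were among the largest differences in the lower direction. Cd209a, a C-type lectin of the DC-SIGN family, read 0.25, -0.23 and 0.66 on the wild-type arrays and -4.85, -6.32 and -6.68 on the Ifnar2-/- arrays, a difference of -6.17 ± 0.61 (SE), with limma adjusted p = 2.8e-04, with 1 of 3 Ifnar2-/- arrays well above background. Clec4g, a lectin of liver sinusoidal endothelium, read 3.24, 2.69 and 5.18 on the wild-type arrays and -1.47, -2.13 and -2.13 on the Ifnar2-/- arrays, a difference of -5.61 ± 0.61 (SE), with limma adjusted p = 4.8e-04, and its second probe read -0.52. Retn, the secreted protein resistin, was not well above background on any Ifnar2-/- array and was at least 25.5-fold lower there (limma adjusted p = 7.2e-05). Spp1, the matrix protein osteopontin, varied more: it read 2.40, 2.75 and -0.22 on the wild-type arrays and -4.07, -3.09 and -2.45 on the Ifnar2-/- arrays, a difference of -4.85 ± 1.01 (SE), with limma adjusted p = 0.021. Wild-type array 3 was the lowest of its group, and the groups still did not overlap. After IFN-β these 4 genes differed by -6.36, -5.59, -5.34 and -4.73.

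**Figure D4:**
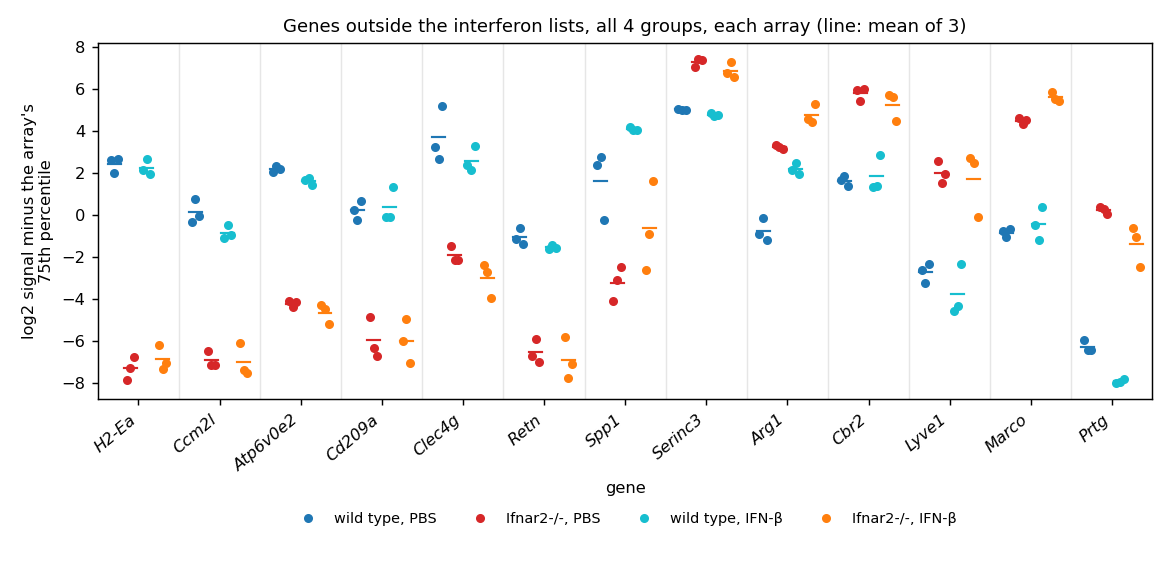
The log2 signal minus the array's 75th percentile (vertical axis) is shown for 13 genes outside the interferon lists in all 4 groups, with 1 point for each array and a line at the mean of 3. The points of the genotypes do not overlap in any of the 13 genes under either injection, and H2-Ea differs by -9.71 after PBS and -9.10 after IFN-β.

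Marco, Lyve1, Folr2, Cbr2, Arg1 and Gpnmb were among the largest differences in the higher direction. Marco, a scavenger receptor for bacteria and particles, read -0.76, -1.05 and -0.68 on the wild-type arrays and 4.62, 4.32 and 4.54 on the Ifnar2-/- arrays, a difference of 5.33 ± 0.32 (SE), with limma adjusted p = 1.0e-05, and it passed with slide as a block (limma adjusted p = 0.020). Lyve1, a hyaluronan receptor, read -2.62, -3.21 and -2.30 on the wild-type arrays and 2.59, 1.54 and 1.93 on the Ifnar2-/- arrays, a difference of 4.73 ± 0.75 (SE), with limma adjusted p = 0.0047. Folr2, a folate receptor of tissue macrophages, differed by 3.89 (adjusted p = 0.014) in limma, and Cbr2, a carbonyl reductase, by 4.14 (adjusted p = 3.3e-04). Arg1, the arginase of alternatively activated macrophages, read -0.91, -0.13 and -1.20 on the wild-type arrays and 3.35, 3.23 and 3.16 on the Ifnar2-/- arrays, a difference of 3.99 ± 0.28 (SE), with limma adjusted p = 3.6e-05, and its difference was smaller after IFN-β, 2.58 (limma interaction adjusted p = 0.035). Gpnmb, a transmembrane glycoprotein of macrophages, was not well above background on any wild-type array and was at least 7.26-fold higher in Ifnar2-/- (limma adjusted p = 8.4e-04). With the common floor its difference was 1.36 and did not pass (limma adjusted p = 0.057). After IFN-β Marco, Lyve1, Folr2 and Cbr2 differed by 6.03, 5.42, 3.29 and 3.40.

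The highest differences also included genes best known from other tissues. Prtg, a neural cell surface protein of the immunoglobulin family, read -5.96, -6.43 and -6.39 on the wild-type arrays and 0.40, 0.30 and 0.03 on the Ifnar2-/- arrays, a difference of 6.50 ± 0.38 (SE), with limma adjusted p = 1.0e-05. Its 3 probes lay between 5.13 and 6.50, and 1 of 3 wild-type arrays was well above background. Fgd5, an exchange factor for a small GTPase, differed by 4.54 (adjusted p = 4.2e-04) in limma and Ttc39c by 3.74 (adjusted p = 0.016). Pianp was not well above background on any wild-type array and was at least 12.6-fold higher in Ifnar2-/- (limma adjusted p = 1.2e-04). Its difference was smaller with the common floor, 2.15, and with normexp, 1.31. The difference of Prtg was 6.52 after IFN-β, whereas that of Ttc39c was 0.20 and that of Fgd5 7.22.

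Genes called after PBS were also counted by position. Among windows of 20 successive tested genes, the window with the most calls held 10 and lay on chromosome 7, over the cluster of tissue kallikreins. All 10 were higher in Ifnar2-/-, among them Klk1b24 at 3.60, Klk1b21 at 2.55 and Klk1b4 at 2.51. Kallikrein copies are near-identical, so it is uncertain how many separate genes these signals represent. A window on chromosome 6 held 8 calls, 7 of them lower, over the natural killer gene complex of lectin receptors. There Clec12b was at least 5.13-fold lower in Ifnar2-/-, where no array was well above background, and Klra17 differed by -2.79 and Clec1b by -2.65. A window on chromosome 8 held 8 calls, 6 of them lower, and contained Retn, Clec4g and Cd209a, which are neighbours. Windows on chromosomes 2 and 12 held 8 calls each. On chromosome 2 these included Serinc3, a membrane protein that lowers the infectivity of some retroviruses, which had means of 5.03 ± 0.03 (SD, n = 3) in wild type and 7.29 ± 0.21 in Ifnar2-/-, a difference of 2.26 ± 0.18 (SE), with limma adjusted p = 6.5e-05. Its neighbours Ada, adenosine deaminase, and Sdc4, a heparan sulfate proteoglycan, differed by 1.21 and -1.57, and the second probe of Sdc4 read 1.40, the opposite sign. On chromosome 12 they included Dtd2 at 2.02, G2e3 at 1.09 and Pnpla8 at 0.55, and each of these 3 had another probe of the opposite sign. Over whole chromosomes the share called ran from 3.07% on chromosomes 4 and 10 to 9.13% on chromosome 18.

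Genes beside Ifnar2 were examined separately. Within 5 Mb of Ifnar2 on chromosome 16, 5 of 72 other genes (6.94%) were called, against 5.17% on the rest of that chromosome and 5.01% on the other chromosomes. The 5 were Eva1c, 6720475J19Rik, Il10rb, Runx1 and the transcript AK046687. Eva1c, a sugar-binding membrane protein, read -4.06, -3.56 and -3.75 on the wild-type arrays and -0.40, -0.42 and 0.29 on the Ifnar2-/- arrays, a difference of 3.61 ± 0.26 (SE), with limma adjusted p = 3.7e-05, while its 3 probes ranged from 0.33 to 3.61. Runx1, a transcription factor of blood development, read -1.75, -1.78 and -1.77 on the wild-type arrays and 0.02, -0.08 and -0.29 on the Ifnar2-/- arrays, a difference of 1.65 ± 0.14 (SE), with limma adjusted p = 7.8e-05, and it was 1.60 after IFN-β. Il10rb, a shared receptor chain for IL-10 and type III interferons that lies beside Ifnar2, differed by -0.69 (adjusted p = 0.020) in limma, and by 0.13 on its second probe. The second probe of Runx1 read 0.64 and did not pass (limma adjusted p = 0.18 over all probes). 6720475J19Rik differed by -1.30 and AK046687 by 1.29. With slide as a fixed block 0 of the 72 passed in limma, and 4 had an unadjusted p under 0.05. From 5 to 10 Mb 2 of 20 genes were called, both interferon-stimulated (Mx1 and Mx2), and from 10 to 20 Mb 6 of 18, Btg3, Cxadr, D16Ertd472e, Robo1, Robo2 and Usp25. Positions are those of the array files, and none of these counts was tested against another.

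**Figure D5:**
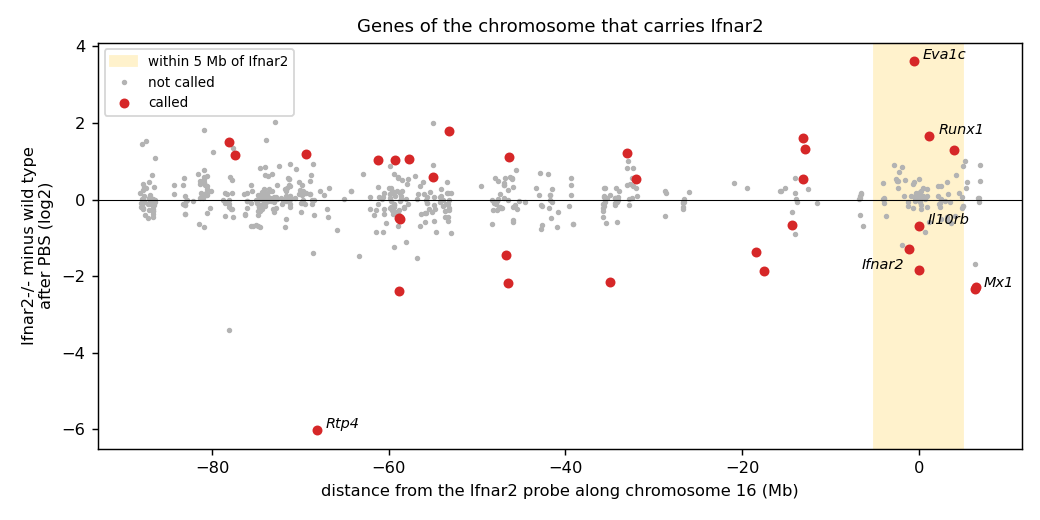
Tested genes of chromosome 16 are placed by distance from the Ifnar2 probe in Mb (horizontal axis) and by their difference, Ifnar2-/- minus wild type after PBS (vertical axis, log2), with the 5 Mb on either side shaded. Called genes lie along the whole chromosome, and Eva1c at 3.61 and Rtp4 at -6.02 are the extremes.

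Of 26 inflammatory genes 2 were higher and 2 lower, 15.4% called against 5.04% of all genes tested, with a median of -0.01. Il1a, the cytokine interleukin 1 alpha, read -5.97, -6.84 and -6.30 on the wild-type arrays and -3.03, -3.02 and -2.91 on the Ifnar2-/- arrays, a difference of 3.39 ± 0.28 (SE), with limma adjusted p = 7.8e-05, and its other probe read 2.29. With the common floor the Il1a difference was 2.03 and with normexp 1.23, and each still passed. Il1b, Tnf and Il6 lay at 0.08, -0.32 and -0.77 and did not pass. Cd40, a costimulatory receptor, was higher at 0.79, and Csf1, the macrophage growth factor, lower at -0.81. Csf2 was called lower at -0.94, but its signal was not well above background on any Ifnar2-/- array and no fold can be given. Of 17 chemokines (11.8% called) 1 was lower, Cxcl12 at -2.06 (adjusted p = 0.0059) in limma, and 1 higher, Pf4 at 0.74. Of 17 complement genes (5.88% called) 1 was higher, C2 at 0.62. Of 22 immediate-early genes (4.55% called) 1 was higher, Egr1 at 1.21. Of 18 Fc and C-type lectin receptors (11.1% called) 2 were lower, Cd209a and the high-affinity receptor Fcgr1 at -1.0.

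Of the heat shock list (13 genes), the glucocorticoid-responsive list (13) and the sterol synthesis list (22), 0 genes passed in limma, against 0, 2 and 3 at an unadjusted p under 0.05, with medians of -0.09, 0.20 and -0.17. Of 26 cell cycle genes 0 passed in limma and 7 had an unadjusted p under 0.05, although 25 differences were below 0, with a median of -0.70. With slide as a fixed block that median was -0.10. Mki67 had means of 1.23 ± 0.66 (SD, n = 3) in wild type and 0.35 ± 0.47 in Ifnar2-/-, a gap close to the spread of the arrays. Over all genes 3653 had an unadjusted p under 0.05. In a list of clusters that are known to vary between mouse strains, 2 of 25 genes were higher and 3 lower, 20% called against 5.04% of all genes tested: Naip5, an inflammasome receptor for flagellin, at 1.64, Naip1 at 1.27, Klra17, Klra4 at -1.20 and H2-Ea.

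Of the 900 genes called after PBS, 42 were also called after IFN-β with the opposite sign, against 643 with the same sign. Of the 42, 31 were higher after PBS and lower after IFN-β in Ifnar2-/-. As 38.2% of all genes tested were called after IFN-β, some such genes would be found in any set, and the 42 were not tested against that share. C2, an early component of the classical complement pathway, was 0.62 after PBS and -2.84 after IFN-β (limma interaction adjusted p = 4.6e-07). Cd40 went from 0.79 to -1.66 (adjusted p = 1.6e-05 in limma). The receptor tyrosine kinase Axl, at 1.95 and -2.79, and the transcription factor Maf, at 1.33 and -1.79, were chosen for mention after their values were seen. In each of these 4 genes Ifnar2-/- was above wild type after PBS and below it after IFN-β.

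Markers of cell types were compared because fewer cells of a type and less RNA per cell cannot be told apart in bulk RNA. Large peritoneal macrophages were present in both groups: all 19 tested markers were well above background on all 6 arrays, the sum of their linear levels, each relative to the array's 75th percentile, ranged from 762 to 1114 in wild type and from 846 to 1069 in Ifnar2-/-, and the ranges overlapped. The defining genes Gata6, Adgre1, Icam2 and Timd4 lay at -0.64, -0.16, -0.13 and 0.20 and did not pass, while Cd163, Vsig4 and Cd5l were higher at 2.20, 1.14 and 0.98. The 14 monocyte and small macrophage markers had a median of 0.38 and summed levels of 256 to 313 in wild type and 287 to 367 in Ifnar2-/-. Of 19 B cell, 18 T cell, 12 NK cell and 4 erythroid markers 0 passed in limma, against 2, 4, 2 and 0 at an unadjusted p under 0.05, with medians of -0.16, 0.41, 0.30 and 0.45. The summed erythroid level spread most, from 6.05 to 63.6 in wild type and from 11.3 to 297 in Ifnar2-/-. The summed B cell level was 499 to 664 in wild type and 489 to 635 in Ifnar2-/-.

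Of the 12 marker lists, those of mast cells and platelets had summed levels that were higher on all 3 Ifnar2-/- arrays than on any wild-type array, for mast cells 327 to 397 against 235 to 312. Of 15 tested mast cell genes 2 were higher, the IgE receptor chain Fcer1a at 1.48 (adjusted p = 9.8e-04) in limma and the growth factor receptor Kit at 0.87, and 14 of 15 differences were above 0. At an unadjusted p under 0.05 in limma, 13 were higher, and over all 17860 genes 3653 passed that limit in either direction. For 6 platelet genes the sum was 231 to 280 against 148 to 205, with Pf4 higher at 0.74, and Clec1b and Itgb3 were lower at -2.65 and -1.92. The other Itgb3 probe read -0.0071, and with the mean of probes the call was lost (-0.96, limma adjusted p = 0.063). The sums of dendritic cell markers were lower on all Ifnar2-/- arrays, 4.86 to 6.72 against 7.79 to 10.9, with Cd209a lower and Siglech and Clec9a higher at 1.18 and 1.24 among 11 genes. With the common floor Siglech was 0.03 and did not pass, and with normexp neither Siglech at 0.25 nor Clec9a at 0.27 passed (limma adjusted p = 0.23 and 0.17). Of 13 neutrophil genes 2 were lower, the collagenase Mmp8 at -3.05 and Csf3r at -0.60. These calls were lost in 10 of 17 and 12 of 18 other settings. The median of the neutrophil list was -0.55 after PBS and 0.43 after IFN-β. Its sum ranged from 18.1 to 122 in wild type and from 23.4 to 29.6 in Ifnar2-/-. Of 6 eosinophil genes 1 was lower, Siglecf at -1.87, with sums of 33.4 to 44.3 and 39.0 to 47.0, and of 14 mesothelial and stromal genes Lrrn4 was lower at -2.47 and Gpm6a higher at 1.27. The share called was 13.3% for mast cells, 50% for platelets, 27.3% for dendritic cells and 15.4% for neutrophils. It was 16.7% for eosinophils and 14.3% for mesothelial and stromal genes, against 5.04% of all genes tested. These lists are short, so few calls set each share. The part of these cell types in the differences of other genes was not tested.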

How the data were processed

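Total RNA was labelled with Cy3 and hybridised to single-colour Agilent arrays, per the labels' protocols, and quantified with Agilent Feature Extraction 9.5.3.1, per the submitters' processing notes and the file headers. The deposited gProcessedSignal is a linear intensity after background subtraction and detrending, per the file headers, and was not scaled between arrays. Deposited intensities of the raw spot and its surroundings were used for normexp alone, and deposited flags (other) mark spots well above background, saturated or outlying. The deposited values of the whole series are the same linear intensities (0 of 45018 differed on any array, medians 50.7 to 77.6) and were not analysed again. Without controls, an array had 43379 spots of 41174 probes.

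Control and outlier spots were left out, spots of a probe were averaged, and log2 values were taken minus each array's 75th percentile. A probe was kept if well above background on all arrays of either PBS group and with a value on at least 2 arrays of every group. This left 27136 probes, and a gene was read by its probe of highest mean signal. Probes were named through RefSeq accessions (22951 and 124), symbols (6582) or older symbols (3077) of GRCm38.p6, used for names and promoters, and 8440 kept the file's name. A limma 3.58.1 fit in R 4.3.3 took 4 group means over all 12 arrays, with 8 residual and 2.48 prior degrees of freedom. With the 6 PBS arrays alone 1002 genes were called, 697 of them among the 900. Tests were two-sided, and adjusted p (Benjamini-Hochberg, over all genes) under 0.05 was called. The fit was first tested on simulated data. Precision is limited by how few arrays each group has. Of 6258 genes with several kept probes, 13 had probes that passed in opposite directions.

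Alternatives were quantile normalization, no scaling, normexp with offset 50, both detection filters, a common floor, the mean of probes, the 6 PBS arrays alone, slide as a fixed or random block, no slide 3, a replicate block and each array left out. Values within slide 2 were added after the data were seen. The comparison and the gene lists were chosen with earlier results of these data known. Named genes were the 12 largest differences each way among called genes with a RefSeq symbol, up to 4 called genes per list, the receptor genes and neighbours of Ifnar2, and up to 3 genes in each of the 5 windows with most calls. Genes that were not called are named where a sentence needs their value, and further called genes of the interferon lists and windows were named after their values were seen. Some genes that the rule selects are not reported here.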

Additional observations from a re-analysis of the deposited data

Results flagged for a closer look

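The genotype difference after PBS minus that after IFN-β, tested as an interaction over all genes in limma, passed for the following named genes (adjusted p under 0.05). A positive value means that Ifnar2-/- stood relatively lower after IFN-β than after PBS. For the interferon-stimulated genes it was Gbp2 4.29, Gbp6 5.68, Ifi27l2a 1.87, Ifi44 6.15, Ifi44l 6.32, Ifit1 10.46, Ifit3 11.22, Iigp1 7.94, Irf7 6.12, Irf9 1.56, Isg15 8.34, Oas1a 4.21, Oas2 4.65, Oas3 4.73, Oasl1 6.26, Oasl2 6.47, Rsad2 11.34, Rtp4 4.49, Slfn5 6.31, Tgtp1 7.29, Usp18 7.62 and Zbp1 5.85.

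Outside those lists, among genes higher in Ifnar2-/- after PBS, it was Arg1 1.41, C2 3.46, Cd40 2.45, Clec9a 0.88, Tap2 2.08 and Ttc39c 3.55. Among genes lower after PBS it was Csf1 2.37, Fcgr1 5.35 and H2-T24 4.49. The value was negative for Eva1c -2.42, Fgd5 -2.68, Il10rb -0.79, Klra17 -2.40, Naip1 -2.06, Pnpla8 -0.55 and Siglech -2.58. In Eva1c, Fgd5, Naip1, Siglech and Pnpla8 the excess in Ifnar2-/- was thus larger after IFN-β, and Klra17 and Il10rb, lower after PBS, differed by -0.39 and 0.10 after IFN-β. No group had 4 or more arrays, so no array was tested for standing apart from its group.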

How the results depend on the processing

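With slide as a fixed block 29 genes were called after PBS, 13 higher and 16 lower, with 4 interferon-stimulated genes lower, 0 genes near Ifnar2 and 27 called with the same sign after IFN-β. For that 0, 4 of the 72 genes had an unadjusted p under 0.05 in limma, and the replicate block called 8. Without the slide 3 arrays, which leaves Ifnar2-/- PBS with 1 array, the counts were 296, 157, 139, 21, 2 and 232 in the same order. Calls lower were 236 with no filter, and genes near Ifnar2 were 3 with no filter and 3 with no scaling. Leaving out 1 of the 6 PBS arrays gave 435 to 1283 genes called, 253 to 912 higher, 182 to 371 lower, 26 to 32 interferon-stimulated genes lower, 2 to 8 near Ifnar2 and 343 to 791 called with the same sign after IFN-β. These counts stood at 900, 522, 378, 33, 5 and 643 with all arrays. The replicate block called 1100 genes, but deviations of same-numbered arrays correlated across genes at 0.20, -0.15 and -0.05, so the numbers do not pair the samples. With no scaling the median of all genes was 0.11. Among the 92 named genes no called difference changed sign under another scaling, filter, floor, probe rule or block (that of Csf2 was 0 with a common floor), and 81 fell short of the threshold with slide as a fixed block. Of 17 or 18 settings the call was lost in 12 for H2-T24, Csf3r and AK046687, 11 for Siglecf, 10 for Csf1, Csf2, Mmp8, Itgb3 and Ifit3, 9 for Il10rb and Kit, and 8 for Pf4, Siglech and Pnpla8. A common detection floor over all 12 arrays gave -7.46 for H2-Ea, -5.15 for Ccm2l, -5.19 for Cd209a, -3.97 for Retn, -1.92 for Ifi44l, -1.20 for Ifit1, -0.88 for Gbp6, -1.66 for Clec12b, 2.15 for Pianp and 5.26 for Prtg, and each still passed. The other settings named under processing kept the counts of calls within 1.5 times. The causes were not tested. The comparison within slide 2 was chosen after seeing the data. The lowest log2 signal well above background was -5.46 and -5.02 on the slide 3 PBS arrays and -6.66 to -6.49 on the others, which limits what dim genes can show.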

Other observations

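Some genes outside the interferon lists shared their pattern, a deficit after PBS that was larger after IFN-β. Of the 345 other genes called lower after PBS, 52 had a larger deficit after IFN-β with the interaction passing in limma, and 56 had a smaller deficit or the opposite sign. Over all genes tested the interaction passed in 17.6%, in either direction. The counts of 52 and 56 are close, so the 345 genes as a set did not lean toward the interferon pattern. Among the 52, named after their values were seen, were Oas1f, another oligoadenylate synthetase, at -2.80 after PBS and -6.68 after IFN-β, and Gbp2b, a guanylate-binding protein, at -1.46 and -6.04. Ddx58, the RNA sensor RIG-I, was -1.09 and -4.54, the giant ubiquitin ligase Rnf213 -0.74 and -5.36, and the exonuclease Trex1 -0.44 and -2.76. Fbxo39, an F-box protein, was -1.55 and -6.52. Of the 522 genes called higher, 58 were higher still after IFN-β and 76 less so or lower, with the interaction passing.

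Some further genes known from macrophages, outside the rule for named genes, were also among the genes called higher after PBS. Stab1, a receptor for modified lipoproteins and hyaluronan, was 2.51 after PBS (limma adjusted p = 9.8e-04) and 3.07 after IFN-β. Fcna, a ficolin made by macrophages, was 2.48 (limma adjusted p = 6.4e-05) and 2.38, and the purinergic receptor P2ry6 2.40 (limma adjusted p = 1.1e-04) and 2.67. These were chosen after their values were seen, and other genes like them were not counted.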
